A study of Drosophila melanogaster with 5 samples.

Results

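The genes rudhira, Sec16 and Tomosyn are protein-coding genes on the X chromosome of Drosophila melanogaster in which several binding sites of MSL2 were called. Their peaks were taken as those with a midpoint inside the annotated extent of 1 of the 3 genes or within 1 kb of it. This gave 17 of the 709 peaks in the deposited list, or 2.40%, of which 15 lay inside the genes (2.12%) and 2 beside Tomosyn. The genes were chosen by the number of their peaks in this same list, so the number, position, spacing and order of their peaks are described here and not tested.

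The peaks came from CUT&RUN, in which an antibody guides a nuclease to its target in permeabilized cells and the DNA released around the target is sequenced. S2 cells, an established Drosophila line with male-like dosage compensation, were grown in Schneider's medium and incubated with rabbit serum against MSL2 (3 libraries) or with pre-immune serum as the control (2 libraries, whose target is labelled PPI). The labels do not say whether libraries of a group came from separate cultures. The authors deposited 1 peak list for the whole series, called on 7890306 anti-MSL2 tags (aligned read positions) against the control. It holds no value for a single library, so no value below has a replicate error, and no peak could be compared between anti-MSL2 and control libraries.

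MSL2 is the subunit of the MSL complex that is made in males and recognises DNA. With MSL1, MSL3, the helicase MLE, the acetyltransferase MOF and the noncoding RNAs roX1 and roX2, it marks active genes on the male X chromosome with acetylated histone H4, which raises their transcription. The complex is held to bind first at high-affinity sites, many of them rich in GA repeats, and from there to reach the bodies of active genes nearby.

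The 3 genes have different roles. The gene rudhira encodes the fly relative of BCAS3, a protein that in mouse binds microtubules and acts in cell migration. Sec16 is the scaffold of the exit sites where COPII vesicles leave the endoplasmic reticulum. Tomosyn is a syntaxin-binding protein that holds back SNARE complex assembly, and with it neurotransmitter release at synapses.

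In dm6, the build that the submitters' processing notes name, rudhira (gene 32136) extends over chrX:11816898-11837460 (20.6 kb). Sec16 (gene 32209) extends over chrX:12596047-12609910 (13.9 kb) and Tomosyn (gene 32217) over chrX:12631605-12653442 (21.8 kb). RefSeq lists 6 transcripts each for rudhira and Sec16 and 7 for Tomosyn. The gene table used here gives extents without strand or exons. Positions are therefore counted from the end with the lower coordinate, and a gene start could not be told from a 3′ end, nor an exon from an intron.

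The gene rudhira held 6 peaks, Tomosyn 5 and Sec16 4. Of the 2700 genes on X, 9 (0.333%) held 4 or more midpoints, and 15.2% held at least 1. That count is what chose the genes, so nothing is read from it. Among the 283 protein-coding X genes at least as long as Sec16, 2.12% held 4 or more midpoints and 194 held none. Per kilobase of gene, the peaks numbered 0.292 in rudhira, 0.289 in Sec16 and 0.229 in Tomosyn. These values rest on the same counts and depend on how close peaks are counted. With peaks within 1 kb merged, rudhira held 3, Sec16 3 and Tomosyn 5. Each peak is 151 bp wide, and the peaks covered 4.41% of rudhira, 4.33% of Sec16 and 3.28% of Tomosyn.

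**Figure D1:**
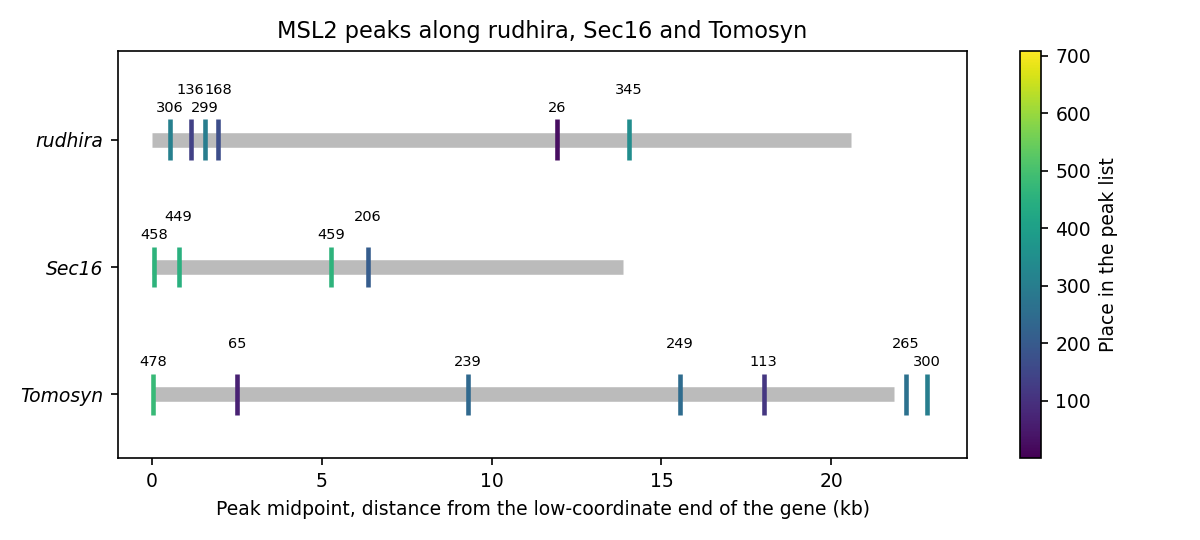
Peak midpoints along the 3 genes, in kb from the low-coordinate end of each gene (grey bars, to scale). Each tick is 1 peak, and its colour and the number printed over it give its place in the list. The 4 peaks at the left of rudhira stand within 1424 bp, and the 5 peaks inside Tomosyn are spread over 82.3% of the gene. The 2 ticks right of the Tomosyn bar are the peaks beside it.

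In rudhira the peaks formed a dense group near the low-coordinate end and a pair deep inside the gene. The group comprised peaks at chrX:11817354-11817504, chrX:11817967-11818117, chrX:11818384-11818534 and chrX:11818778-11818928. Their midpoints lay 531, 1144, 1561 and 1955 bp inside the gene, at distances of 613, 417 and 394 bp from each other. The peaks of this group do not overlap, but the smaller distances, 417 and 394 bp, come near the 300 bp set as the minimum distance between peaks. Midpoints in the list can stand closer than that setting, the smallest distance being 286 bp.

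After 9980 bp without a peak came the pair, at chrX:11828758-11828908 and chrX:11830858-11831008, with midpoints 2100 bp apart. They lay at 58.0% and 68.3% of the gene's length. The last 6527 bp of rudhira, or 31.7% of the gene, held no peak.

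No other 4 consecutive peaks of the list were packed so closely. The 4 midpoints of the rudhira group spanned 1424 bp. The next tightest run of 4, across CG1801 and Rpt6, spanned 3608 bp, and the third, around arm, 4569 bp. This comparison was chosen after the positions were seen. The run length of 4 is the size of the rudhira group itself, so nothing is read from its rank, and shorter runs were not ranked. Close spacing also occurred elsewhere. The smallest distance between any adjacent midpoints in the list was 286 bp. In Trf4-1 the smallest distance was 437 bp and the median 633 bp.

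In Sec16 the 4 peaks formed 2 pairs, all in the part of the gene nearer its low-coordinate end. The first pair lay at that end, at chrX:12596044-12596194 and chrX:12596766-12596916, with midpoints 72 and 794 bp inside the gene. The first of these peaks extends past the annotated end of the gene. The second pair lay at chrX:12601249-12601399 and chrX:12602333-12602483, at 38.1% and 45.9% of the gene's length. Distances between midpoints were 722 bp within the first pair, 1084 bp within the second and 4483 bp between them. The remaining 7502 bp, 54.1% of Sec16, held no peak.

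In Tomosyn the peaks were neither grouped nor confined to 1 end. The first, at chrX:12631567-12631717, had its midpoint 37 bp inside the low-coordinate end and straddles the annotated boundary. The others lay at chrX:12634042-12634192, chrX:12640839-12640989, chrX:12647072-12647222 and chrX:12649540-12649690, at 11.5%, 42.6%, 71.2% and 82.5% of the gene's length. Distances between midpoints were 2475, 6797, 6233 and 2468 bp. The smallest of these exceeds all but the largest distance in rudhira and all but the largest in Sec16. The microRNA gene mir-970 lies inside Tomosyn, and none (0) of the midpoints fell inside it.

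The median distance between adjacent midpoints was 613 bp in rudhira, 1084 bp in Sec16 and 4354 bp in Tomosyn. Between adjacent peaks of the whole list it was 7477 bp. Because the genes were chosen for holding several peaks in a limited length, a short distance follows in part from that choice. Of the 15 peaks inside the genes, 6 had another midpoint within 1 kb, 4 of them in rudhira and 2 in Sec16, and none in Tomosyn. In the list as a whole 22.4% of peaks had one.

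Most peaks inside the 3 genes were away from gene ends. Of the 15, 4 lay within 1 kb of the end of a protein-coding gene (26.7%), which was 69.8% for the list as a whole. All 4 of these were at the low-coordinate end of their own gene: 1 in rudhira, 2 in Sec16 and 1 in Tomosyn. None (0) of the 15 lay within 1 kb of the high-coordinate end of its own gene. Shares for low and high ends apart were not taken over all peaks, so nothing is read from the side. The median distance to a protein-coding gene end was 2512 bp for the 15 peaks and 430 bp for all peaks.

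Gene length bears on this measure, since short genes have no position far from an end. For the other 133 peaks in protein-coding genes at least as long as Sec16, the share within 1 kb of an end was 37.6% and the median distance was 1813 bp. Against these long genes the 3 genes differed less than against the whole list. The end counted is the nearest one of any protein-coding gene, also of a gene lying inside a longer one. No protein-coding gene lies whole inside the 3 genes, but some of the other long genes hold one. A peak in Zdhhc8, for example, was 1332 bp from the end of CG34450, which lies inside Zdhhc8. The difference was not tested, because 15 peaks in 3 chosen genes are not independent samples.

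The list is not in order of position, and what its order ranks is not given in the sources used here. Each peak name also carries a number, which runs up to 3598 and mostly rises with the place in the list. Of the 15 peaks inside the genes, 11 were among the first 354 of the list, which are 49.9% of all peaks. None (0) was among the last 177 peaks.

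The 3 genes differed in the places of their peaks. In rudhira, in order of position, the places were 306, 136, 299, 168, 26 and 345, so all 6 were among the first 354. The earliest, at place 26 with the number 65 in its name, was the first peak of the inner pair and not a member of the dense group. In Tomosyn the places were 478, 65, 239, 249 and 113, with the first at the gene's end and the earliest 2512 bp inside it. In Sec16 the places were 458, 449, 459 and 206, so the peak farthest inside the gene came earliest.

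In each gene the earliest peak of the list thus lay more than 1 kb from a gene end, as did 11 of the 15 peaks. The 4 peaks within 1 kb of a gene end were at places 306 to 478, with a median of 453.5. The other 11 were at places 26 to 459, with a median of 206. The ranges overlap, since the peak at 38.1% of Sec16 was at place 459. The list as a whole had the same direction: the median place was 375 for the 495 peaks near an end and 307.5 for the 214 others. That comparison was not limited to long genes.

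**Figure D2:**
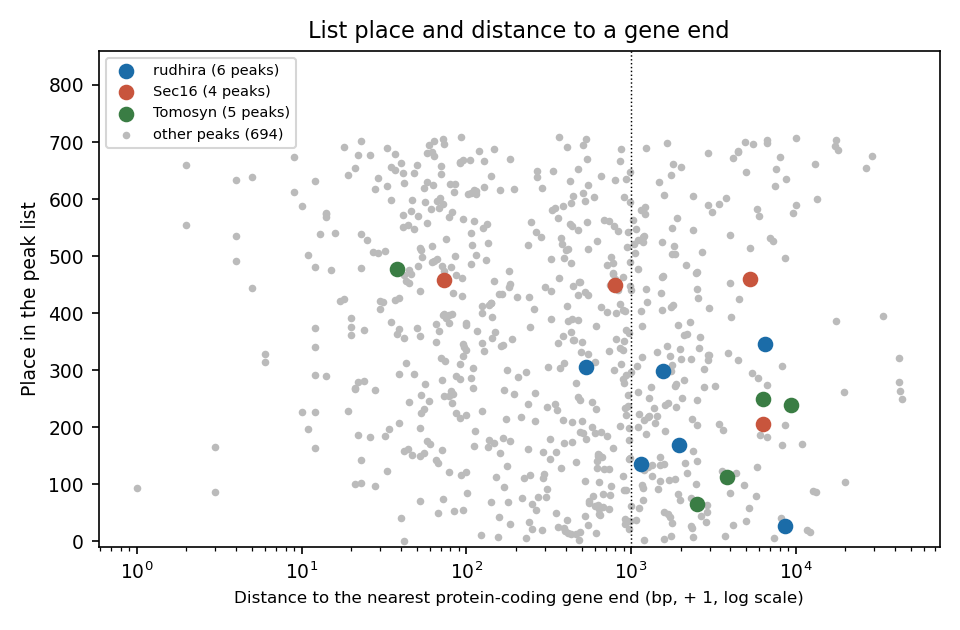
Place in the list against the distance to the nearest protein-coding gene end (bp plus 1, log axis) for the peaks inside the 3 genes (large coloured points) and the other 694 peaks (small grey points). The dotted line is at 1 kb. Of the coloured points, 4 stand left of the line, at places 306 to 478, and 11 right of it, reaching down to place 26.

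The surroundings of the genes held further peaks. Within 50 kb on either side, each of the 3 genes had 9 other peak midpoints, which 15.8% of protein-coding X genes reached or exceeded. The median over protein-coding X genes was 4, with quartiles of 2 and 7. Among the 391 protein-coding X genes with a midpoint, 20.7% reached 9, and the median was 5. For Sec16 and Tomosyn the counts share peaks, because these genes are only 21694 bp apart. The 9 beside Sec16 include the 5 inside Tomosyn, and the 9 beside Tomosyn include the 4 inside Sec16. Those peaks also chose the genes, so nothing is read from the counts of Sec16 and Tomosyn.

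Around rudhira the nearest other peaks were 9350 bp below and 8884 bp above the gene. The one below was 9881 bp from the dense group, which is less than the 9980 bp between that group and the inner pair. On the low side, CkIIbeta, the regulatory subunit of casein kinase 2, held peaks at places 144 and 330. A further peak, at place 593, lay 431 bp outside Hsc70-3, the fly BiP chaperone of the endoplasmic reticulum. CG1578, the gene next to the dense group of rudhira, held none.

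On the high side, 2 peaks at places 559 and 563 lay 245 and 686 bp outside CG15740. A peak at place 396 had its midpoint between p24-1 and CG10347. The midpoint was 71 bp outside p24-1, of the p24 family of vesicle cargo proteins, and the peak overlapped the end of that gene. Nrd1 held a peak at place 238 and had another 90 bp outside it, at place 311. The last, at place 492, lay inside CG15739. Of 19 protein-coding neighbours within 50 kb, 3 held a midpoint. That is near the share among all protein-coding X genes, which was 17.8%. The median place was 233.5 for the 6 peaks in rudhira and 396 for the 9 around it, of which 4 were among the first 354.

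Sec16 and Tomosyn neighbour each other, with 8 genes lying whole between them, 6 of them protein-coding: CG1463, Fpgs1, CG11085, CG15728, Aven and CG2540. None (0) of the peaks fell in this stretch. The distance from the last midpoint in Sec16 to the first in Tomosyn was 29234 bp, and 162 of the 708 distances between adjacent peaks in the list were longer. Below Sec16, 1 peak at place 378 lay 5013 bp away in LIMK1, which encodes a kinase acting on the actin regulator cofilin.

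Above Tomosyn, CkIalpha, a casein kinase of the Wnt and Hedgehog pathways, held both peaks counted beside Tomosyn. They lay at chrX:12653720-12653870 and chrX:12654341-12654491, at 353 and 974 bp from the end of Tomosyn and at places 265 and 300. They lie inside CkIalpha and are nearer to its end, at 169 and 790 bp, than to that of Tomosyn. The next peak outside the limit of 1 kb was 5542 bp away, at place 487 and 431 bp outside Tis11, which encodes a zinc finger protein of mRNA decay. A further peak, inside Tis11 and 20841 bp from Tomosyn, was at place 169.

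**Figure D3:**
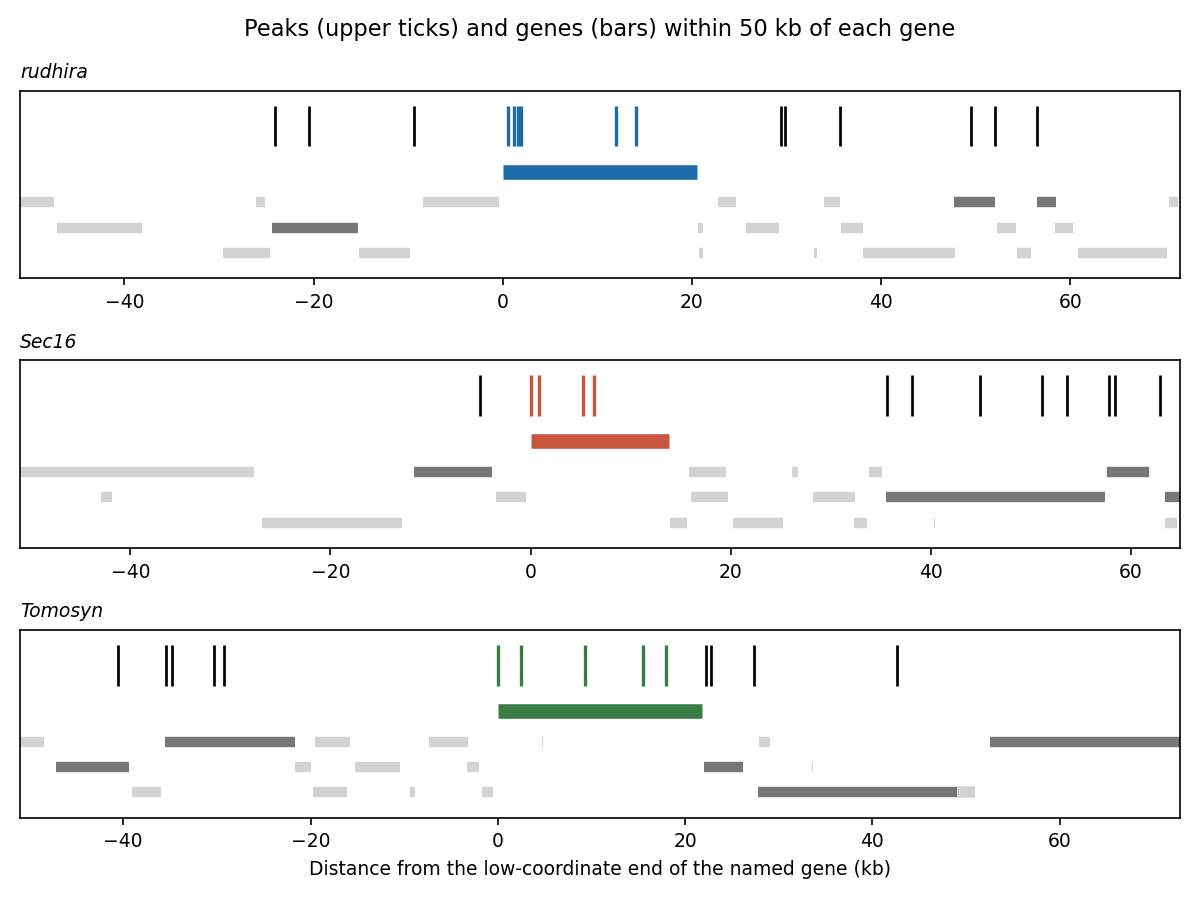
Peaks and genes within 50 kb of rudhira, Sec16 and Tomosyn, in kb from the low-coordinate end of the named gene. Upper ticks are peak midpoints, coloured inside the named gene and black outside it. Bars are gene extents, coloured for the named gene, dark grey for other genes with a midpoint inside and light grey for genes without one, on 3 levels so that neighbours stay apart. Each panel has 9 black ticks, and the stretch between Sec16 and Tomosyn has none.

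The other 6 X genes with at least 4 midpoints were nej, G9a, Mnr, Trf4-1, su(w[a]) and the lncRNA gene CR32773. The gene nej, which encodes the histone acetyltransferase CBP, was most like rudhira in count and length. The 6 peaks of rudhira lay in 20.6 kb, with a median distance of 613 bp and a largest of 9980 bp. The 6 peaks of nej lay in 21.6 kb, with a median distance of 1115 bp and a largest of 12714 bp. The places were 26 to 345 in rudhira and 22 to 532 in nej. In the histone methyltransferase gene G9a the 4 peaks were at places 553 to 698, later than every peak in rudhira, Sec16 and Tomosyn. In su(w[a]), a splicing regulator, the 4 peaks were at places 409 to 683, and in Trf4-1, a poly(A) polymerase gene, they were at places 60 to 298. Per kilobase, G9a held 0.461 peaks and Trf4-1 0.407, more than rudhira, Sec16 or Tomosyn, while nej held 0.277 and su(w[a]) 0.120. The median distance in Trf4-1, 633 bp, was close to that in rudhira. Mnr and CR32773 are far longer, at 75.9 and 224 kb, with 0.0527 and 0.0179 peaks per kilobase. Sec16 shared its count of 4 with all of these other genes but nej, and 31 X genes held 3.

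**Figure D4:**
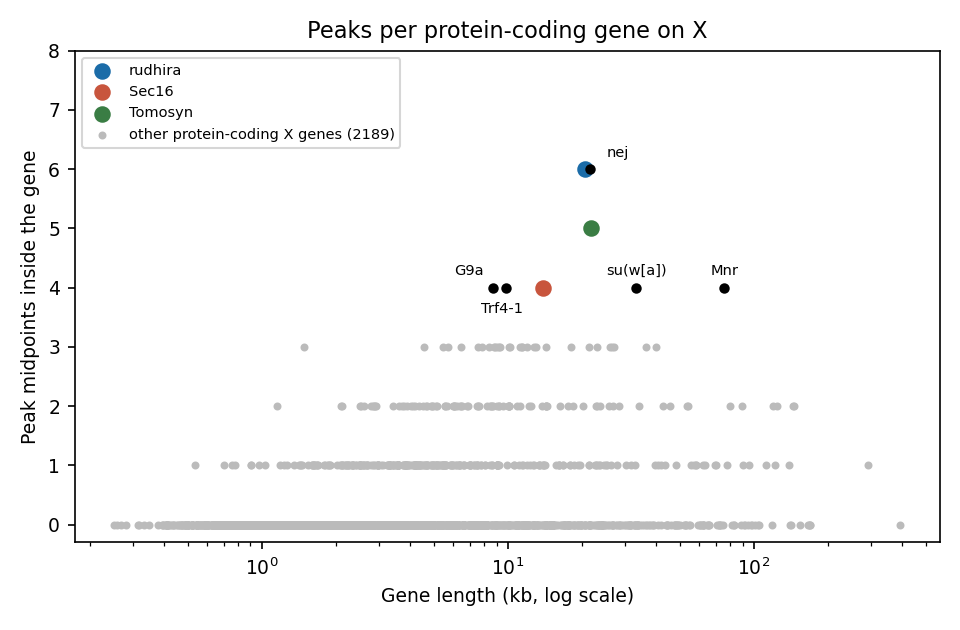
Peak midpoints per protein-coding X gene against gene length (kb, log axis). Large coloured points are rudhira (6), Tomosyn (5) and Sec16 (4), black points are the other protein-coding genes with at least 4 midpoints, and grey points are the rest. The genes nej and rudhira have the same count at nearly the same length.

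Places of the peaks in the roX genes, known high-affinity sites, are given beside those of the 3 genes. What the list order ranks is not given, so no strength of binding is read from them. The earliest peak was at place 26 in rudhira, 65 in Tomosyn and 206 in Sec16, against places 3 to 30 for the 3 peaks in roX2 and place 4 for the 1 in roX1. The gene rudhira lies 236465 bp above roX2, with 17 other peaks between them.

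Genes that act beside the 3 were examined through lists of COPII and exit site genes, of SNARE-mediated exocytosis genes and of autophagy genes, the last because BCAS3 is linked to autophagy in human cells. As all peaks lie on X, only X genes can hold one. Of 74 listed genes besides the 3, 73 were found in the gene table and 11 were on X. A midpoint lay inside 3 of these 11, and inside 17.8% of all protein-coding X genes. So small a count does not set the lists apart.

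Each of these held 1 peak inside. In p115, a tether of vesicles between the endoplasmic reticulum and the Golgi and the only other listed exit site gene on X, the peak was at place 53, and a further one within 1 kb outside the gene was at place 382. In Sec22, a SNARE of the same route, the peak was at place 702. In Atg5, a conjugation factor of autophagosome formation, it was at place 45. Among the other exocytosis genes on X, Syx16 had a peak 612 bp outside the gene. Syx4, comt (the NSF ATPase that takes SNARE complexes apart), Syt12, Rph and Ykt6 had none inside or within 1 kb. The same held for the autophagy genes Atg8a and Atg101.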

How the data were processed

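The authors ran HOMER findPeaks (factor style) with 1 anti-MSL2 and 1 control tag directory, per the file headers, which do not say whether all libraries were pooled. Required were 10-fold more tags than the control and 4-fold more than the surrounding 10000 bp, each at a Poisson p-value of 0.0001, with at least 25 tags. The local requirement works against closely spaced peaks, and 474 putative peaks were removed by it, at positions not listed. The submitters' processing notes name Bowtie2 2.2.9, SAMtools 1.9, HOMER 4.9 and dm6. The deposited score is 1 for every peak and carries no measurement.

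Starts were made 1-based. Midpoints were matched to the extents of 2700 X genes in a RefSeq table of Release 6 (the assembly of dm6) with Python 3.11.15 and pandas 2.3.3. The counting was tested on simulated positions. Named genes were the 3 genes, genes with peaks within 50 kb, X genes with at least 4 midpoints, roX1 and roX2, and the listed genes. Genes and lists were chosen with earlier results of these data known. Runs of 4 peaks, long genes and the last 177 places were added after the values were seen. Alternatives changed the counting of peaks, the window and the part of the list. No genome sequence was used, so motifs were not examined.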

Additional observations from a re-analysis of the deposited data

How the results depend on the processing

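Of 31 alternative values, 20 were identical or, for counts, within 1.5 times, and 11 were not. Merging peaks within 1 kb left 3 in rudhira, by joining its group of 4. The first 354 peaks left 1 in Sec16 and a median distance of 6233 bp in Tomosyn, where fewer peaks were used. With peaks within 1 kb included, the median distance in Tomosyn was 3327.5 bp and the median place 249. The numbers in the peak names had medians of 309.5 in rudhira, 634 in Sec16 and 308 in Tomosyn, in place of 233.5, 453.5 and 239. Sec16 came last on either scale, while rudhira and Tomosyn changed order. The numbers mostly rise with the place and run higher, so they are no separate check and the larger medians follow from the scale. Within 25 kb there were 3 peaks beside Sec16 and 4 beside Tomosyn, and within 100 kb there were 14 beside rudhira. The distance within Sec16 had no value in the first 354 peaks, which hold a single one of its peaks.

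No paired analysis was possible because single libraries have no values here, and the calls could not be repeated with a library left out. The planned threshold by score was not run, since the score is constant, and the motif counts were not run without a genome. How far each peak varies between libraries, and how many tags it holds, cannot be stated from the list.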
